A study of Mus musculus with 6 samples.

Results

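The genes described here are Hand1, Hand2, Dlx1, Dlx2, Dlx3, Dlx5, Dlx6, Edn1, Ednra and Gsc, the endothelin, Dlx and Hand genes that set lower branchial arch identity. The members were chosen by symbol, taking each probe set that a table of the array platform lists for one of these 10 symbols. That gave 13 probe sets for 9 genes, of 18193 genes with a probe set of their own on the array. Ednra had no probe set under its symbol in that table and was not analysed here. The study profiled mouse tissue at embryonic day 11.5 on 6 Affymetrix Mouse Genome 430 2.0 arrays, each with RNA from a pool of 3 embryos and both ears. The dissected tissue was the otic vesicle, the epithelial sac from which the inner ear forms, with the periotic mesenchyme around it. The Mest-KO group was 3 pools of embryos with a conditional Tbx1 knockout made by T-Cre, a recombinase active in mesoderm, and the control group was 3 pools of T-Cre conditional Tbx1 heterozygotes. All comparisons are thus between a T-Cre conditional knockout and a T-Cre conditional heterozygote, not a wild type. The sample titles do not say which Tbx1 alleles either group carried, or in which cells a copy was lost.

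In the branchial arches, endothelin-1, made from Edn1 by epithelium and arch core cells, acts through the receptor encoded by Ednra on neural crest cells of the arch. The signal turns on the homeobox genes Dlx5 and Dlx6, which in turn are needed for Dlx3, Hand1 and Hand2 in the lower part of the arch, while Dlx1 and Dlx2 are made along the whole arch. Hand2 and Hand1 encode basic helix-loop-helix transcription factors of the distal arch, and Gsc encodes goosecoid, a homeodomain repressor used in jaw and middle ear structures. Several of these genes have a second site of action near the ear, since Dlx5, Dlx6 and Dlx3 are also made in otic epithelium or surface ectoderm.

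Values of single pools are given in the order of their numbers, 1, 2 and 3, which carry no ranking. Intensities are in units of the deposited scaling, which gave each array the same trimmed mean, and differences were tested with limma on log2(intensity + 16), a scale that understates changes of dim genes. A gene was tested where its brightest probe set was above the 30th percentile of probe sets, an intensity of about 13.3, and was called where the Benjamini-Hochberg adjusted p over the 14170 genes tested was under 0.05. The highest intensity among 27 unspiked bacterial control probe sets was 11.2, and a value under it is described as not above background. The targeted gene, Tbx1, read 524.5, 567.3 and 446.7 in the control pools and 520.5, 578.0 and 409.9 in the Mest-KO pools, a log2 difference of -0.035 ± 0.14 (SE), so its probe set does not separate the labels, and whether it lies in the deleted part is not given in the labels. For the dissected tissue, the otic gene Oc90 read from 2915 to 3782 and the mesenchymal gene Prrx1 from 5868 to 6233 over the 6 arrays. Hindbrain markers stood apart in some arrays. Of 12 tested, 12 were lower in Mest-KO and 2, Skor1 and Hoxb1, fell in limma. Their mean log2 level, relative to the mean of the 6 arrays, was 1.12, -0.33 and 1.17 in the control pools and -0.78, -0.22 and -0.96 in the Mest-KO pools.

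Of the 8 member genes tested, Hand2 alone was called, and it rose in Mest-KO. Over all genes 12 rose, which is 0.0847% of those tested, and 9 (0.0635%) fell, with 22 and 56 when arrays were centred on their medians instead. Gsc had the next smallest p of the members, with a rank of 27 among all genes, and did not pass. Hand2 and Gsc were the 2 members of 8 without overlap between groups, both higher in Mest-KO, while 14.5% of all genes had no overlap and 9.32% were higher without it. In pooled tissue, more cells of a type and more RNA per cell cannot be told apart. For Dlx1, Dlx2, Dlx3, Dlx5, Dlx6 and Edn1 the groups overlapped and limma adjusted p was 0.777 or more. The median log2 difference over the 8 genes was 0.090, beside 0.013 over all genes tested.

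**Figure D1:**
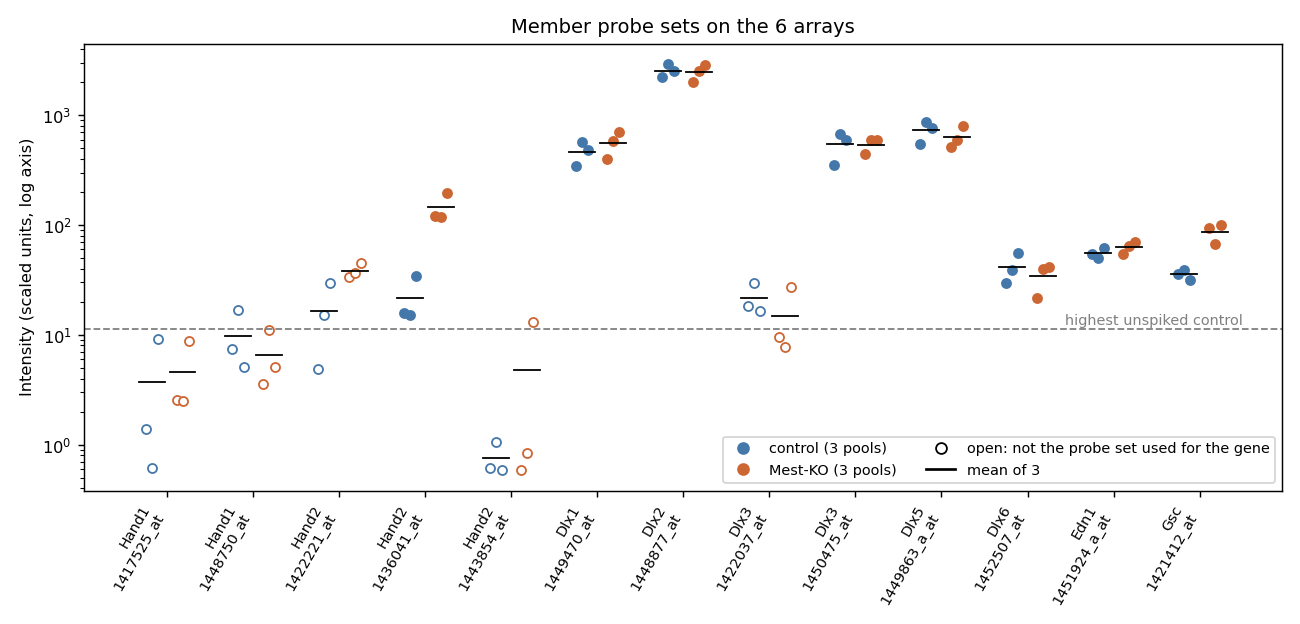
Intensity (scaled units, log axis) of the 13 member probe sets on 3 control arrays (blue) and 3 Mest-KO arrays (orange), with the mean of each group as a bar; open points are probe sets that were not used for the gene, and the dashed line is the highest unspiked control at 11.2. The 3 Mest-KO arrays lie above the 3 controls for 2 of the Hand2 probe sets and for Gsc, and the Dlx and Edn1 points of the groups overlap.

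Hand2 and Gsc are shown with the sequence before their start sites, since these are the members whose groups stood apart, together with Dlx6os1, a noncoding transcript of the Dlx5-Dlx6 locus described further on. The windows are the 250 bases before the annotated start, from RefSeq on GRCm38.p6, read 5′ to 3′ along the gene's strand. Such a window was listed for 5 of the 9 measured genes, and those of Hand1, Dlx3, Dlx5 and Dlx6 were not listed. Capitals mark matches, on either strand, to CATCTG, an E-box variant bound by Hand proteins with their partners, to TAATTA, a homeodomain core, or to GTGTGA, a T-box core.
Hand2, chr8:57320733-57320982, plus strand: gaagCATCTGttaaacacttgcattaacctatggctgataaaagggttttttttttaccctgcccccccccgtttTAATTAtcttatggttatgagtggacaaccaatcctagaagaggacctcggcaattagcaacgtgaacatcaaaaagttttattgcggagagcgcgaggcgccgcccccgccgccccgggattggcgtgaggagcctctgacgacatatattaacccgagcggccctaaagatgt
Gsc, chr12:104473237-104473486, minus strand: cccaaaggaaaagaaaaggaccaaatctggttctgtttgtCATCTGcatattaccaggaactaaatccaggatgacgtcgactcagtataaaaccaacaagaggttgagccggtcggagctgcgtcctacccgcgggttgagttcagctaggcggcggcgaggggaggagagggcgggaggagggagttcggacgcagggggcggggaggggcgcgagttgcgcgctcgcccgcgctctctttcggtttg
Dlx6os1, chr6:6869534-6869783, minus strand: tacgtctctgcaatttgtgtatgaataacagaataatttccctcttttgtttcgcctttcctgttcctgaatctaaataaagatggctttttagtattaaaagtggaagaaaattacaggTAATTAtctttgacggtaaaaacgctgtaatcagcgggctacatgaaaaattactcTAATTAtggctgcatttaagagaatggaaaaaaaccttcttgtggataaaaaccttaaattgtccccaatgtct
The Hand2 window held CATCTG from 246 to 241 bases before the start and TAATTA from 175 to 170 bases before it, and the Gsc window held CATCTG from 210 to 205 bases before the start. The Dlx6os1 window held TAATTA at 2 places, and a window at its other listed start held 1. The windows of Dlx1, Dlx2 and Edn1 held none of the 3, and GTGTGA was in none of these windows. Over 32851 windows of the same length, 14.4% held CATCTG, 4.84% held TAATTA and 12.3% held GTGTGA. These matches describe the letters only, and they were looked for with the gene values known.

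The Hand2 probe set with the highest mean, 1436041_at, read 15.8, 15.2 and 34.3 in the control pools and 121.2, 118.9 and 196.6 in the Mest-KO pools. The lowest Mest-KO pool was thus well above the highest control, and the controls lay only a little above background. The mean went from 21.8 ± 10.9 (SD, n = 3) to 145.6 ± 44.2, a ratio of means of 6.69, and the log2 difference was 2.10 ± 0.24 (SE; limma, adjusted p = 0.0105) with a 95% interval from 1.57 to 2.63. An exact permutation test of the 3 against 3 arrays gave p = 0.1, the smallest it allows.

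A further Hand2 probe set, 1422221_at, read 4.89, 15.2 and 29.8 in the control pools and 33.7, 36.2 and 45.4 in the Mest-KO pools. Again no Mest-KO pool read below a control, but the gap was narrow and control 1 was not above background. Its log2 difference was 0.81 ± 0.26 (SE), with a 95% interval from 0.23 to 1.38 and an adjusted p of 0.341 over the 31526 probe sets kept in limma. The third, 1443854_at, was not above background on 5 of the 6 arrays and read 13.0 in Mest-KO 3, so it gave no usable difference. Of the Hand2 probe sets, then, 1 passed over all probe sets, where 21 (0.0666%) passed and 8 (0.0254%) were higher in Mest-KO (limma, adjusted p = 0.0115).

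The call for Hand2 was lost without control 1 (adjusted p = 0.0557) and without Mest-KO 1 (adjusted p = 0.0590), where the limma log2 differences were 2.00 and 2.20. It was also lost with the mean of its probe sets, where the difference was 1.06 (adjusted p = 0.162), with the hindbrain list as a covariate, where it was 2.23 ± 0.38 (SE; adjusted p = 0.150), with no filter (adjusted p = 0.0762) and with eBayes without a trend (adjusted p = 0.0794). Over 17 alternatives the difference kept its sign in 17, from 1.06 to 2.75. It passed with quantile or median scaling, with either other pseudocount, with array weights and with the replicate block. It also passed without control 2, control 3, Mest-KO 2 or Mest-KO 3. Control 2 read 15.2 for Hand2, and with that pool as the only control the log2 difference was 2.34. The control arm of that fit holds 1 array, so only the size is given. The mean hindbrain level of control 2, -0.33, lay within the range of the Mest-KO pools. The 2 hindbrain genes that fell were higher in control 2 than in the Mest-KO pools. Skor1 read 138.0 against 25.6, 30.5 and 18.7, and Hoxb1 read 29.1 against 4.96, 9.08 and 3.12. The part of hindbrain tissue in the Hand2 values was not tested.

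Hand1, the paralogue of Hand2, was not measurable here. Its probe set 1417525_at read between 0.616 and 9.14 on the 6 arrays, and 1448750_at read between 3.53 and 11.1 on 5 arrays and 16.9 in control 2. Only that last value was above background, neither probe set passed the filter, and the groups overlapped for both, so no fold is given.

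Hand factors bind E-boxes as pairs with other basic helix-loop-helix proteins. Of 5 partner genes tested, 0 were called in limma (0 at an unadjusted p under 0.05), 4 were lower and 1 higher in Mest-KO, and the median was -0.054. Those with the smallest p were Tcf4 (-0.098 ± 0.064), Twist1 (-0.054 ± 0.066) and Tcf12 (-0.053 ± 0.077), where errors are SE. Twist1 also encodes a regulator of arch mesenchyme.

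Gsc read 36.0, 39.0 and 31.7 in the control pools and 92.9, 67.4 and 100.3 in the Mest-KO pools. All Mest-KO pools were above all controls, and the 3 controls lay close together. The mean went from 35.6 ± 3.66 (SD, n = 3) to 86.9 ± 17.3, a ratio of means of 2.44, and the log2 difference was 0.98 ± 0.17 (SE), with a 95% interval from 0.60 to 1.37. It did not pass over all genes (limma, adjusted p = 0.0802; exact permutation p = 0.1). Over 17 alternatives the difference stayed above 0 in 17, from 0.59 to 1.25, and passed in 1, with arrays centred on their medians (adjusted p = 0.0325). The adjusted p ranged from 0.0325 to 0.769.

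**Figure D2:**
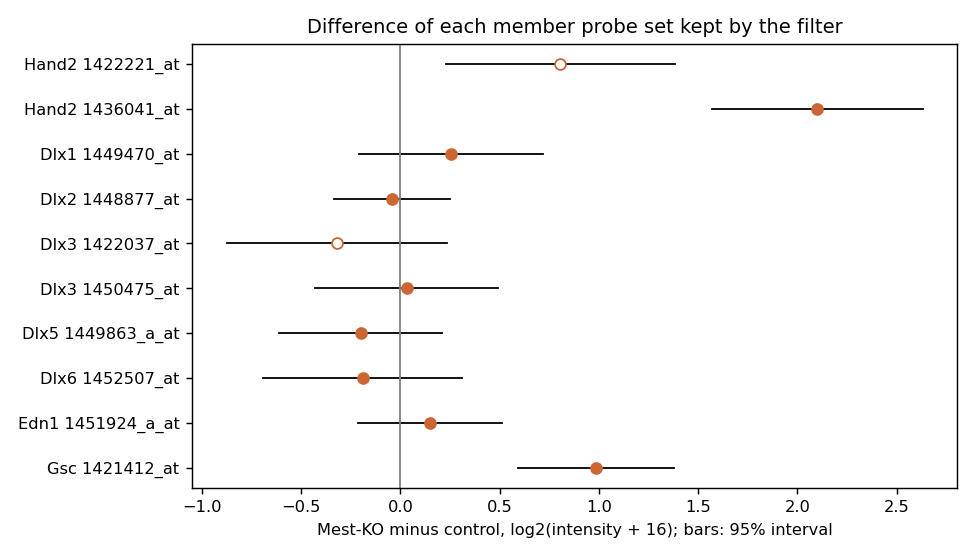
Log2 difference, Mest-KO minus control, of the 10 member probe sets that passed the filter on low values, as points with 95% intervals from limma; filled points are the probe sets used for the gene. The intervals of both Hand2 probe sets and of Gsc lie above 0, and those of the Dlx genes and Edn1 include 0.

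Markers of other cells that make Hand2 were compared as well. Of 7 limb bud genes, 6 did not pass the filter, and Tbx5, Hoxa13, Hoxd13, Hoxd12, Hoxd11 and Fgf8 were not above background on any array. The limb gene tested, Tbx4, read 24.6, 15.4 and 17.2 in the control pools and 39.7, 28.2 and 14.7 in the Mest-KO pools. Its log2 difference was 0.28 ± 0.23 (SE), and the groups overlapped. Among 12 heart genes, Nkx2-5 was not above background on any array, Gata4 and Myh6 peaked at 13.2 and 13.6, and 8 were tested, with a median difference of 0.036 and 0 called. Groups did not overlap for 2 of them, chosen after their values were seen, with Tnni3 at 0.50 ± 0.19 and Myh7 at -0.36 ± 0.17. Over all genes, 14.5% had no overlap. The summed intensity of those 8 heart genes ran from 753.5 to 1168 in control and from 817.6 to 1267 in Mest-KO. Of 5 autonomic neuron genes tested, 4 were higher, 2 of them without overlap, and 0 were called. Over all genes, 7622 of 14170 were higher and 9.32% were higher without overlap. The 2 autonomic genes without overlap, chosen after their values were seen, were Dbh (0.39 ± 0.21) and Slc18a2 (0.30 ± 0.13), which act in making and storing noradrenaline. The list had a median of 0.13 and summed levels from 1578 to 1764 in control and 1759 to 2048 in Mest-KO.

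Neural crest and glial genes were compared in the same way. Of 7 tested, 5 were higher in Mest-KO, 4 of them without overlap, and 0 were called, with a median of 0.41. The 2 lower genes were Tfap2a (-0.17 ± 0.15) and Tfap2b (-0.25 ± 0.20), and the largest rise was that of Alx1 (0.50 ± 0.14). These were named with their values known. Over all 14170 genes 7622 were higher, 9.32% of all without overlap. The mean of the 7, relative to the 6 arrays, was -0.10, -0.20 and -0.01 in the control pools and 0.13, 0.11 and 0.08 in the Mest-KO pools (exact permutation p = 0.1), and their summed intensity ran from 7852 to 8522 in control and from 8681 to 9253 in Mest-KO. Of the probe sets with the highest mean intensities, that of Erbb3, encoding a neuregulin receptor, differed by 0.16 ± 0.10, and that of Sox10, encoding a transcription factor of crest and glia also made in otic epithelium, by 0.41 ± 0.081 (SE; limma, adjusted p = 0.682 and 0.106). The part of these cells in the Hand2 and Gsc values was not tested.

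The genes closest to Hand2 in pattern, by root mean square distance between log2 values each centred on its mean over the 6 arrays, were Foxl2os (0.48), Pex5l (0.54), Meox1 (0.56), Sst (0.59) and Gdpd3 (0.60). Gsc came sixth, at 0.65. Meox1 encodes a homeobox factor of somite mesoderm and Sst the peptide somatostatin. All were higher in Mest-KO, from 0.94 for Gdpd3 to 1.68 for Foxl2os, and since the likeness is dominated by the group difference it is given only as a description of 6 arrays.

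Edn1, the ligand gene, read 54.8, 49.7 and 61.6 in the control pools and 54.2, 64.9 and 70.6 in the Mest-KO pools. The groups overlapped. The log2 difference of 0.15 ± 0.16 (SE) had a 95% interval from -0.21 to 0.50, and the limma test over all genes gave adjusted p = 0.841. Endothelial cells, another source of endothelin-1, gave higher marker levels in Mest-KO for 7 of 7 genes tested, with a median of 0.20, 3 without overlap and 0 called, beside 7622 of 14170 higher and 9.32% higher without overlap over all genes. The mean of those 7 genes, relative to the 6 arrays, was -0.08, -0.17 and -0.06 in the control pools and 0.08, 0.10 and 0.13 in the Mest-KO pools, with summed intensities from 4291 to 4625 in control and from 4843 to 5210 in Mest-KO. Emcn and Tek, whose probe sets had the highest mean intensities of the list, differed by 0.033 ± 0.11 and 0.29 ± 0.083. Tie1, a receptor gene chosen after its value was seen, had the largest difference of the list, at 0.54 ± 0.14, without overlap (limma, adjusted p = 0.207). Pharyngeal endoderm, also an epithelium that makes endothelin-1, gave lower levels for 6 of 8 genes tested, with a median of -0.25, and 1 of them, Foxa1, fell in limma. Its mean was 0.50, 0.025 and 0.34 in the control pools and -0.29, -0.28 and -0.29 in the Mest-KO pools. The part of these cells in the Edn1 level was not tested.

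Of 10 further genes of the endothelin pathway, 9 passed the filter, 6 were higher, 3 lower and 0 called in limma. At an unadjusted p under 0.05 there were 0, where 8.97% of all genes were, and the median was 0.038. Plcb3, encoding a phospholipase that acts after Gq-coupled receptors, differed by 0.21 ± 0.10 (SE). Mef2c, encoding a transcription factor through which endothelin acts on Dlx5 and Dlx6 in the arch, differed by 0.20 ± 0.10. Ednrb, the gene for the other endothelin receptor, differed by 0.19 ± 0.11 at its brightest probe set. Its other probe sets went the opposite way, with -0.36 for 1423594_a_at and -0.11 for 1426314_at, so its direction depended on the probe set. For 1423594_a_at the groups did not overlap, and the 95% interval ran from -0.70 to -0.032. Groups did not overlap for 2 genes of the list that were higher, Plcb3 and Mef2c. They did not for 1 that was lower, Gna11 (-0.14 ± 0.083), named with its value known. Over all genes, 14.5% had no overlap. Edn2, another ligand gene, was above background on 3 of 6 arrays and was not tested.

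The Dlx genes encode homeodomain factors that lie in the genome as pairs. For all 5 tested, the groups overlapped. Dlx5 read 547.9, 870.1 and 766.1 in the control pools and 513.1, 588.3 and 791.8 in the Mest-KO pools. Its log2 difference in limma was -0.20 ± 0.19 (SE; adjusted p = 0.811), and the 95% interval ran from -0.61 to 0.21. Dlx6, its neighbour, read 29.5, 39.1 and 55.5 in the control pools and 21.6, 40.0 and 41.4 in the Mest-KO pools. The difference was -0.19 ± 0.23, with a 95% interval from -0.69 to 0.31.

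Dlx3, which lies downstream of Dlx5 and Dlx6 in the arch, read 355.1, 669.9 and 599.1 in the control pools and 440.9, 589.8 and 589.0 in the Mest-KO pools at 1450475_at. The difference was 0.032 ± 0.21, with a 95% interval from -0.43 to 0.50. A dim second probe set, 1422037_at, was above background on 4 of 6 arrays and differed by -0.32 ± 0.25. Neither separated the groups.

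Dlx1 read 346.6, 566.9 and 485.6 in the control pools and 403.2, 581.7 and 701.8 in the Mest-KO pools, a difference of 0.25 ± 0.21 with a 95% interval from -0.21 to 0.72. Dlx2 read 2205, 2907 and 2525 in the control pools and 2018, 2545 and 2890 in the Mest-KO pools, a difference of -0.041 ± 0.13 with a 95% interval from -0.34 to 0.25. Both mark the whole arch, and Dlx2 had the narrowest interval of the Dlx genes. Dlx1 differed by -0.080 with the hindbrain covariate and, in a fit whose control arm was the single array of control 2, by -0.046 ± 0.26.

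The spread was shared. In each group the first pool was the lowest for all 5 Dlx genes tested, while this held for 0 of the other 3 members tested and for 8.47% of all genes. These counts rest on the probe set used for each gene. The dim Dlx3 probe set 1422037_at was instead lowest in control 3 and Mest-KO 2. The Hand2 probe set 1422221_at was lowest in the first pool of both groups. The mean of the 5 Dlx genes, relative to the 6 arrays, was -0.35, 0.23 and 0.16 in the control pools and -0.34, 0.06 and 0.24 in the Mest-KO pools. These Dlx genes were seen to share the pattern before it was counted, and the labels do not say whether pools of the same number were handled together. Surface ectoderm, which makes Dlx3 and Dlx5, was 1 of 3 lists whose mean was also lowest in the first pool of both groups, beside autonomic neurons and the other lower arch genes. Its mean was 0.04, 0.11 and 0.13 in the control pools and -0.22, -0.17 and 0.09 in the Mest-KO pools. Of its 7 markers 7 were lower in Mest-KO and 0 were called, beside 6548 of 14170 lower over all genes. The median was -0.18, with summed levels from 9134 to 10519 in control and 7662 to 10169 in Mest-KO. The markers with the highest mean intensities were Krt18 (-0.18 ± 0.12) and Epcam (-0.10 ± 0.10). Cdh1, named with its value known, was the 1 marker lower without overlap, where 5.22% of all genes were. It differed by -0.37 ± 0.11 (SE; limma, adjusted p = 0.278). For periotic mesenchyme, of which 10 genes were tested, 0 were called and the median was -0.071, the mean was 0.13, 0.057 and 0.049 in the control pools and -0.16, 0.030 and -0.11 in the Mest-KO pools. For otic epithelium, with 8 tested, 0 called and a median of -0.075, it was 0.086, 0.12 and 0.047 against -0.067, -0.30 and 0.11. The part of these tissues in the Dlx levels was not tested.

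The Dlx loci also make noncoding transcripts. Dlx6os1, also called Evf2, is transcribed opposite to Dlx6 and includes an enhancer of the Dlx5-Dlx6 pair, and Dlx1as is an antisense RNA that overlaps Dlx1. Dlx6os1 was taken from the list of lower arch genes, and Dlx1as was chosen after its value was seen. Dlx6os1 read 244.3, 460.2 and 396.6 in the control pools and 125.5, 190.6 and 189.8 in the Mest-KO pools. Dlx1as read 376.7, 561.0 and 557.8 in the control pools and 228.8, 249.5 and 307.5 in the Mest-KO pools. For both, all Mest-KO pools were below all controls, where 5.22% of all genes were lower without overlap. The log2 difference was -1.03 ± 0.23 for Dlx6os1 and -0.88 ± 0.17 for Dlx1as (SE), and neither passed over all genes (limma, adjusted p = 0.165 and 0.106). Over 18 alternatives both stayed below 0 and each passed in 1, with arrays centred on their medians (adjusted p = 0.0417 and 0.0268).

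Each noncoding transcript was also set against its neighbours within each array, which takes out spread that both share. The log2 ratio of Dlx6os1 to Dlx5, relative to its mean over the arrays, was 0.28, 0.50 and 0.47 in the control pools and -0.51, -0.16 and -0.58 in the Mest-KO pools, a difference of -0.83. The ratio of Dlx1as to Dlx1 was 0.58, 0.45 and 0.66 in the control pools and -0.31, -0.70 and -0.68 in the Mest-KO pools, a difference of -1.13. Against Dlx6 and Dlx2 the differences were -0.84 and -0.83. In each of these 4 ratios the groups did not overlap. The noncoding transcripts were taken up with their lower values in Mest-KO known, so the ratios largely restate that choice and are a description, with no test. The other noncoding transcripts were dim. Dlx6os2 was not above background on any array, and Dlx4os differed by 0.11 ± 0.27.

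**Figure D3:**
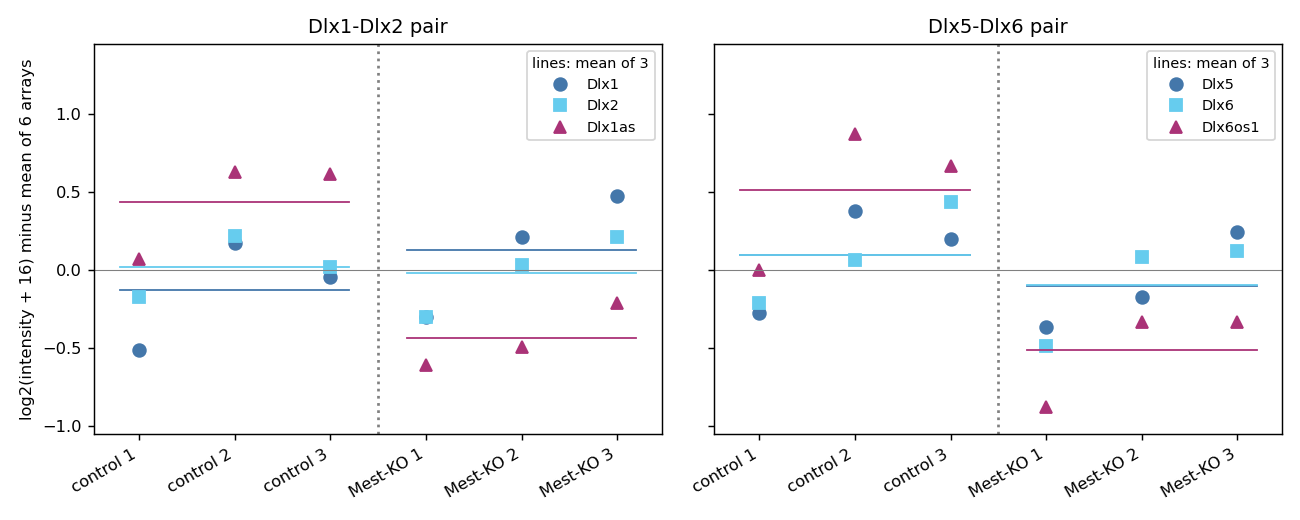
Log2(intensity + 16) of the coding and noncoding transcripts of the Dlx1-Dlx2 and Dlx5-Dlx6 pairs on each array, less the transcript's mean over 6 arrays; horizontal lines are means of 3 pools, and pools have no order within a group. The triangles of Dlx1as and Dlx6os1 lie lower in all Mest-KO pools than in any control, while the coding genes overlap and are lowest in the first pool of each group.

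Dlx6os1 and Dlx1as are also made in neurons of the forebrain, and hindbrain markers were lower on average in Mest-KO, so their neural levels were set beside them. The mean hindbrain level of the control pools was 1.12, -0.33 and 1.17. In the same pools Dlx6os1 read 244.3, 460.2 and 396.6, and Dlx1as read 376.7, 561.0 and 557.8. With the hindbrain mean as a covariate the differences were -1.36 ± 0.34 and -1.13 ± 0.26 (SE) and did not pass (limma, adjusted p = 0.412 and 0.377). Of the forebrain interneuron genes, 3 were tested and 3 were lower in Mest-KO, with a median of -0.96, 2 at an unadjusted p under 0.05 and 0 called in limma. Sp8, whose probe set had the highest mean intensity of the 3, differed by -0.063 ± 0.21. The largest differences were those of Gad2 (-1.56 ± 0.39) and Gad1 (-0.96 ± 0.30, named with its value known), encoding enzymes that make GABA. The groups overlapped for all 3. Gad2 was not above background in Mest-KO 1 and Mest-KO 3, at 1.66 and 8.25. Gad1 was not above it in Mest-KO 1, at 6.94. The list mean relative to the 6 arrays was 0.61, -0.16 and 0.84 in the control pools and -0.91, -0.00089 and -0.37 in the Mest-KO pools. Their summed intensity ran from 185.0 to 356.8 in control and from 115.8 to 231.9 in Mest-KO, and Nkx2-1 peaked at 21.9. The part of neural tissue in the Dlx6os1 and Dlx1as values was not tested.

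The other arch genes were described by list. Among 13 tested genes of the lower or distal arch, 8 were lower and 5 higher, 5 were lower without overlap and 0 were called in limma (5 at an unadjusted p under 0.05, all lower), with a median of -0.27. Over all 14170 genes 6548 were lower, 5.22% of all without overlap, and 459 were lower at an unadjusted p under 0.05. Besides Dlx6os1, the smallest p belonged to Foxf1, encoding a forkhead factor of mesenchyme that responds to hedgehog signals (-0.96 ± 0.19; adjusted p = 0.106), and Msx2, encoding a homeodomain factor of distal arch that responds to BMP (-0.43 ± 0.10; adjusted p = 0.165). Foxf1 read from 496.7 to 618.1 in control and from 201.5 to 371.2 in Mest-KO, and it passed without Mest-KO 3 (-1.16, adjusted p = 0.0327) and with arrays centred on their medians (adjusted p = 0.0155). Msx1, a related gene added with its value known, differed by -0.46 ± 0.11. Barx1, a homeobox gene of proximal arch mesenchyme also chosen later, differed by -0.046 ± 0.17. Gbx2, Dlx4 and Tbx3, likewise added, differed by 0.077 ± 0.16, 0.15 ± 0.26 and 0.26 ± 0.13. The mean of the 13 genes relative to the 6 arrays was 0.027, 0.17 and 0.21 in the control pools and -0.22, -0.07 and -0.12 in the Mest-KO pools (exact permutation p = 0.1).

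Of 12 tested genes of the upper arch or of arch mesenchyme as a whole, 8 were lower, 4 higher and 0 called in limma. At an unadjusted p under 0.05 there were 2, Lhx8 and Prrx2, which were also the 2 lower without overlap. The median was -0.10. Over all 14170 genes 6548 were lower, 5.22% of all without overlap, and 459 were lower at an unadjusted p under 0.05. Lhx8, encoding a LIM homeodomain factor of arch and palate mesenchyme, read 1993, 2061 and 1560 in the control pools against 242.2, 302.7 and 925.6 in the Mest-KO pools. The groups did not overlap, but Mest-KO 3 stood apart, and the difference of -2.14 ± 0.37 (SE; adjusted p = 0.0742) became -2.71 ± 0.15 (adjusted p = 5.95e-05) without it. It also passed with arrays centred on their medians (limma, adjusted p = 0.00424) and with array weights (adjusted p = 0.0202). Prrx2, a homeobox gene of arch mesenchyme, differed by -0.30 ± 0.11, and Nr2f1, a nuclear receptor gene of the maxillary arch, by 0.093 ± 0.064. Pou3f3, a gene of the upper arch added with its value known, differed by -0.11 ± 0.089, and Prrx1, general to arch mesenchyme, by 0.0065 ± 0.057 (limma, adjusted p = 0.783 and 0.985).

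**Figure D4:**
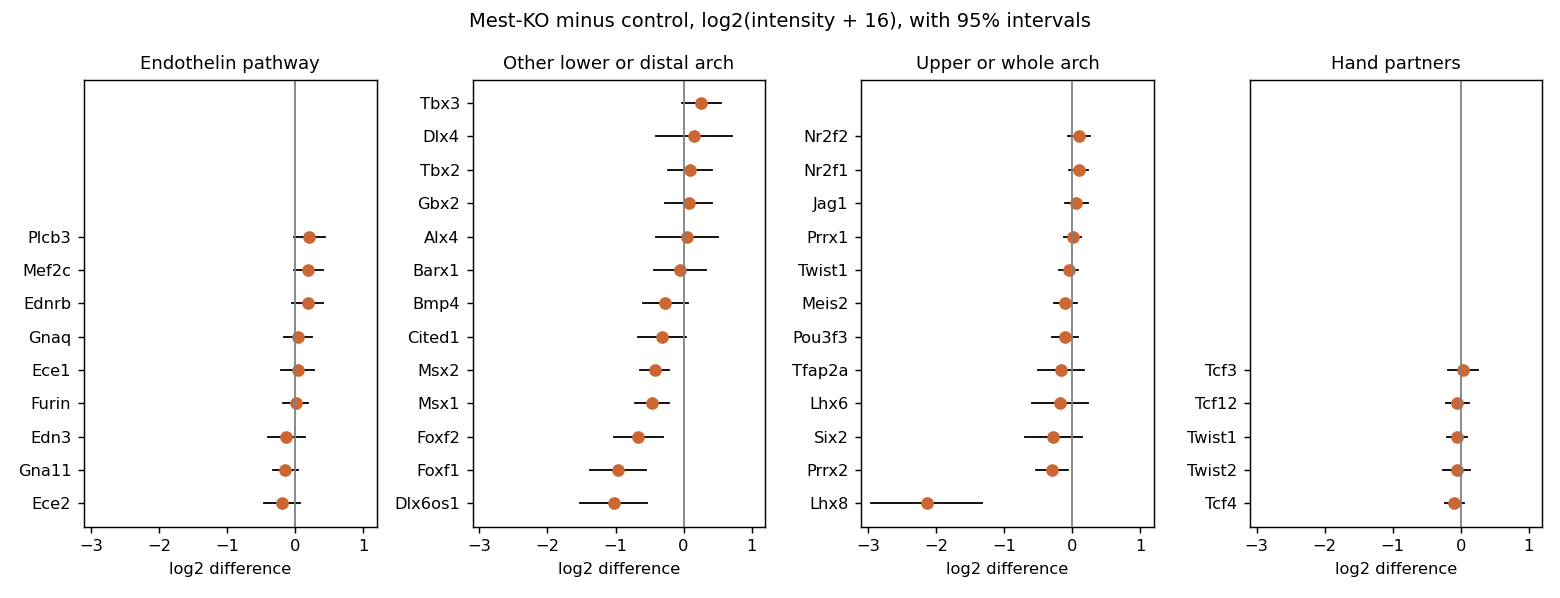
Log2 difference, Mest-KO minus control, with 95% intervals from limma for each tested gene of 4 lists: endothelin pathway (9), other lower or distal arch (13), upper or whole arch (12) and Hand partners (5). Foxf1, Dlx6os1 and Lhx8 lie farthest to the left, 0 of these genes passed over all genes, and the intervals of all endothelin genes and Hand partners include 0.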

How the data were processed

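Gene expression was measured on 6 one-colour Affymetrix arrays of otic vesicle with periotic mesenchyme, 3 control and 3 Mest-KO pools, and groups came from the titles in the labels. Per the labels, 300 ng of total RNA was labelled for each array. The deposited values are probe set intensities on a linear scale. Per the submitters' processing notes, the authors used Affymetrix Expression Console 1.1. Which summarization and background method it ran is not given in the sources used here. Without the lowest and highest 2% of values, the mean was 500.0 on every array, so the authors had scaled them to a common level, and a shift shared by most genes would not show. For arrays, their number limits the precision.

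Control probe sets (64) did not enter. Of 45101 probe sets, 34945 had 1 symbol and 932 several, and the latter were not used. Values were taken as log2(intensity + 16), 1 probe set per gene (highest mean), filtered at the 30th percentile, and fitted in limma 3.58.1 (R 4.3.3) with genotype as the only term and eBayes with trend, two-sided. Every member probe set was also fitted among the 31526 probe sets kept. The labels call the pools biological replicates. The steps were tested on simulated data. Members and lists were chosen with earlier results of these data known. Named were all members, list genes past the threshold and the 3 of each list with the smallest p, the 5 genes nearest Hand2 and up to 2 bright genes per marker list; others are marked as chosen later. Alternatives were quantile or median scaling, pseudocounts of 1 and 64, other filters, the mean of probe sets, other variance models, a replicate block, a hindbrain covariate, and arrays left out.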

Additional observations from a re-analysis of the deposited data

How the results depend on the processing

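With 3 arrays a group, counts of calls moved strongly with the settings. The 21 genes called became 78 with arrays centred on their medians, 2 with no filter and 6 with the mean of probe sets. They became 1 without a trend, 9 with the replicate block and 5 with the hindbrain covariate. With single arrays left out the count ran from 2 (control 1) to 84 (control 2), with 6 for control 3, 3 for Mest-KO 1 and 9 for Mest-KO 2. The 1 member called (Hand2) became 2 with arrays centred on their medians (Hand2 and Gsc) and 0 with no filter, the filter at the 50th percentile (where Hand2 was not tested), the mean of probe sets, no trend and the hindbrain covariate, and ran from 0 to 1 with single arrays left out. The count called in the lower arch list went from 0 to 2 with arrays centred on their medians and from 0 to 2 over the arrays left out, and that of the upper arch list from 0 to 1 with arrays centred on their medians and with array weights, and from 0 to 1 over the arrays left out. Signs turned for small differences that never passed. Dlx1 went to -0.080 with the hindbrain covariate and -0.046 with control 2 as the only control. Dlx2 went to 0.022 with array weights and ran from -0.16 to 0.10 over the arrays left out. Dlx3 went to -0.033 with median centring, -0.14 with the mean of probe sets, -0.30 with the hindbrain covariate and -0.32 with control 2 as the only control, and ran from -0.24 to 0.21 over the arrays left out. Dlx6 ran from -0.34 to 0.0065 over the arrays left out, and Ednrb went to -0.095 with the mean of probe sets. The cause was not tested. Both groups carry numbers 1 to 3, and the labels do not say whether these pair the pools. Across genes, deviations of pools with the same number correlated at -0.03, -0.11 and -0.15, and those with different numbers from -0.15 to 0.24. For Hand2 the deviations were -0.21, -0.24 and 0.45 in the control pools and -0.20, -0.23 and 0.43 in the Mest-KO pools. These values do not settle whether pools of the same number were handled together. With the replicate block Hand2 passed (2.10 ± 0.17; limma, adjusted p = 0.00186) and Gsc did not (0.98 ± 0.19; adjusted p = 0.150). The Hand2, Gsc, Dlx5 and Edn1 differences kept their sign in all alternatives run.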
